A study of Mus musculus with 21 samples.

Results

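The genes described here encode enzymes and a carrier that make itaconate and that use arginine, ornithine and tryptophan. They are Irg1 (the count table's name for Acod1), Nos2, Arg1, Arg2, Ass1, Odc1, Slc7a2 and Ido1. These 8 symbols were chosen by name from the 23420 genes of the table, and all 8 were found in it. The choice was made with results of these data known, among them the rise of Irg1 in tumor-infiltrating monocytes and the difference in Nos2 between the tumor models. Member values against bone marrow and between the models are therefore given as a description. Whether a member passed the threshold used for all genes is stated there for reference, without its p-value, and is no evidence about the members.

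RNA was measured in 21 libraries of inflammatory monocytes (IMs), sorted as CD45+SiglecF-CD11b+Ly6G-Ly6Chi cells. Tumor-infiltrating IMs (TIMs) came from LN2E1 primary tumors (n = 5) and LN2E1 lymph nodes (n = 5) of FVB mice given KAL-LN2-E1 cells in the lung, and from lungs of DBA2 mice given LN4K1 cells into a vein (n = 5). Bone marrow IMs (BM IMs) came from healthy FVB mice (n = 3) and healthy DBA2 mice (n = 3) without tumors. Male and female adult mice were used, and both tumor lines were squamous lung cancer lines made by passaging in mice. Each LN2E1 mouse received 500000 cells and each LN4K1 mouse 300000. Strain, tumor line, number of cells, route of injection and tissue all changed together between the LN2E1 and LN4K1 models, and their parts in any difference cannot be told apart.

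Libraries held between 80772922 and 101043568 counts. The sort markers Ptprc, Itgam, Ly6c2 and Ccr2 were present in every library. Against marrow of the same strain Ly6c2 had a log2 fold change of -1.30 (SE 0.12, edgeR adjusted p = 1.68e-05) in primary tumor TIMs. It was at -1.17 (SE 0.20, edgeR adjusted p = 0.00116) in lymph node TIMs and -0.88 (SE 0.13, edgeR adjusted p = 0.000903) in LN4K1 lung TIMs. The values of Ptprc, Itgam and Ccr2 were positive in each of these groups. Lymph node TIM replicate 1 and LN4K1 lung TIM replicate 3 stood apart from the rest of their groups and had the fewest genes with at least 10 counts in them, 11047 and 12015. Markers of other cells differed between groups. The sum of 7 fibroblast markers lay between 378 and 1134 CPM (counts scaled to the library's total) in primary tumor TIMs, between 12.2 and 108 CPM in lymph node TIMs and at most 43.1 CPM elsewhere. The sum of 10 squamous and lung epithelial markers lay between 157 and 742 CPM in primary tumor TIMs, between 6.62 and 133 CPM in LN4K1 lung TIMs and at most 5.25 CPM elsewhere, with Krt5 at or near 0 throughout. The sum of 5 endothelial markers lay between 51.5 and 110 CPM in the LN2E1 groups and between 4.85 and 15.8 CPM elsewhere. It came mostly from Pecam1, with Tek and Cldn5 low. In LN4K1 lung TIMs against DBA2 marrow Cldn5 had a log2 fold change of 9.09 (SE 1.22, edgeR adjusted p = 0.00145) and Pecam1 one of -0.20 (SE 0.33, edgeR adjusted p = 0.711). The sum of 12 neutrophil markers went the other way, from 3445 to 7062 CPM in BM IMs and from 653 to 2463 CPM in TIMs. Single neutrophil genes went both ways. At an unadjusted p under 0.05 in edgeR 4 were higher and 7 lower in primary tumors, 2 and 8 in lymph nodes and 1 and 7 in LN4K1 lungs. Those higher in primary tumors included Cxcr2, at a log2 fold change of 3.66, and Csf3r, at 1.04. The sum of 8 eosinophil, basophil and mast cell markers fell from between 440 and 1227 CPM in BM IMs to at most 223 CPM in TIMs. The sum of 7 mature macrophage markers lay between 754 and 1904 CPM in BM IMs, between 2177 and 3613 CPM in LN2E1 TIMs and between 3663 and 5305 CPM in LN4K1 lung TIMs. Of these markers 2, 1 and 1 were higher and 0, 0 and 2 lower in primary tumors, lymph nodes and LN4K1 lungs, at an unadjusted p under 0.05 in edgeR. The part of these markers in the member values was not tested. Because these are bulk samples, fewer cells of a type and less RNA per cell cannot be told apart.

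Itaconate is made from cis-aconitate, an intermediate of the citrate cycle, by the mitochondrial enzyme that Irg1 encodes, and activated macrophages and monocytes are known for making it. Arginine has several fates in these cells. It enters through carriers such as the product of Slc7a2, is oxidised to nitric oxide and citrulline by the inducible synthase of Nos2, or is split to ornithine and urea by the cytosolic arginase of Arg1 and the mitochondrial arginase of Arg2. Citrulline can be turned back toward arginine by the enzyme of Ass1, and ornithine is fed into polyamine synthesis by the decarboxylase of Odc1. Ido1 encodes an enzyme that opens the ring of tryptophan and starts the kynurenine pathway.

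Promoter sequences were read from RefSeq (GRCm38.p6), 250 bases before to 50 bases after the start of each gene, and matched Irg1, Odc1 and Ass1. Nos2, Arg1, Arg2, Slc7a2 and Ido1 had no entry. The promoters of Irg1 (chr14:103046762-103047061, plus strand) and Odc1 (chr12:17544623-17544922, plus strand) are shown because their base composition is unlike and because Irg1 was near 0 in marrow and Odc1 was already expressed there. Capitals mark matches to the searched motifs.
Irg1: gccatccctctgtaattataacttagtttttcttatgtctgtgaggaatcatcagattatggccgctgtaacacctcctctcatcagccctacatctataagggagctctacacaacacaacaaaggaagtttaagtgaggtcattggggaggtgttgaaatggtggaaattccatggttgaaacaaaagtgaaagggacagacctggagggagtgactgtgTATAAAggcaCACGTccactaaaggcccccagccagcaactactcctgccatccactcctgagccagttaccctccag
Odc1: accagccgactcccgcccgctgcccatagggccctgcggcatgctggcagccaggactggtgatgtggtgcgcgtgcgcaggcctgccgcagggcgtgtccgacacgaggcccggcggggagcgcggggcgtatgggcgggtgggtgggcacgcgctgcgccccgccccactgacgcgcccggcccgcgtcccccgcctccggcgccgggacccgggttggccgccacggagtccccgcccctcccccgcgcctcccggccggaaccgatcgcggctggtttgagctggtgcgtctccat

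The Irg1 promoter was 47.0% G and C with 2 CG pairs, and 28.4% of 32851 promoters had a lower share of G and C. The Odc1 promoter was 78.0% G and C with 42 CG pairs, and 98.1% of promoters had a lower share. That of Ass1 was 74.0% G and C with 27 CG pairs, against a median of 52.7% and 7 pairs over all promoters. Both strands were searched for NF-kB (GGGANNTTCC, in 1.47% of all promoters), ISRE (GAAANNGAAA, 3.44%), STAT (TTCNNNGAA, 8.30%), AP-1 (TGANTCA, 7.81%), C/EBP (TTGCNNAA, 10.8%), CRE (TGACGTCA, 1.79%), the hypoxia element (ACGTG, 19.6%) and the E-box (CACGTG, 7.15%, which always holds the hypoxia element). Positions are counted from the RefSeq start, which lies 35 bases after the start of the gene in the GRCm38 annotation given below for Irg1, 63 bases after it for Ass1 and 79 bases after it for Odc1. The Irg1 window held 1 hypoxia element, on the minus strand, whose first base lies 18 bases before the RefSeq start. It also held the TATA letters (TATAAA, 13.6%) at 28 bases before that start, a motif added after the sequence had been seen. The Ass1 window held an E-box at 36 bases before its RefSeq start, and the Odc1 window held none of these motifs.

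Irg1 lies on chr14:103046977-103056573 (GRCm38, plus strand), and its 5 exon blocks cover 2623 bases. Its levels, in CPM scaled with TMM factors over all libraries, were 0.125, 0.102 and 0 in the 3 FVB BM IM libraries and 0.0719, 0 and 0.0634 in the 3 DBA2 BM IM libraries, from at most 11 counts. In primary tumor TIMs they were 56.1, 58.1, 58.9, 76.0 and 50.3 CPM, in lymph node TIMs 40.1, 48.8, 55.3, 94.5 and 65.2 CPM, and in LN4K1 lung TIMs 28.7, 20.6, 26.1, 30.7 and 10.5 CPM. Every TIM library thus lay far above every BM IM library, and every LN2E1 library lay above every LN4K1 library. Group means were 59.9 ± 9.63 CPM (SD, n = 5) for primary tumors, 60.8 ± 20.9 CPM (n = 5) for lymph nodes and 23.3 ± 8.11 CPM (n = 5) for LN4K1 lungs. The log2 fold change against marrow of the same strain was 9.66 (SE 0.53) in primary tumors, 9.69 (SE 0.73) in lymph nodes and 8.91 (SE 0.73) in LN4K1 lungs, and the first 2 of these share the FVB libraries. With each library left out in turn the values ran from 9.03 to 10.25, from 9.06 to 10.25 and from 8.33 to 9.42, lowest without FVB replicate 3 or DBA2 replicate 2, which held no count. The LN2E1 means were 2.57 and 2.60 times the LN4K1 mean.

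**Figure D1:**
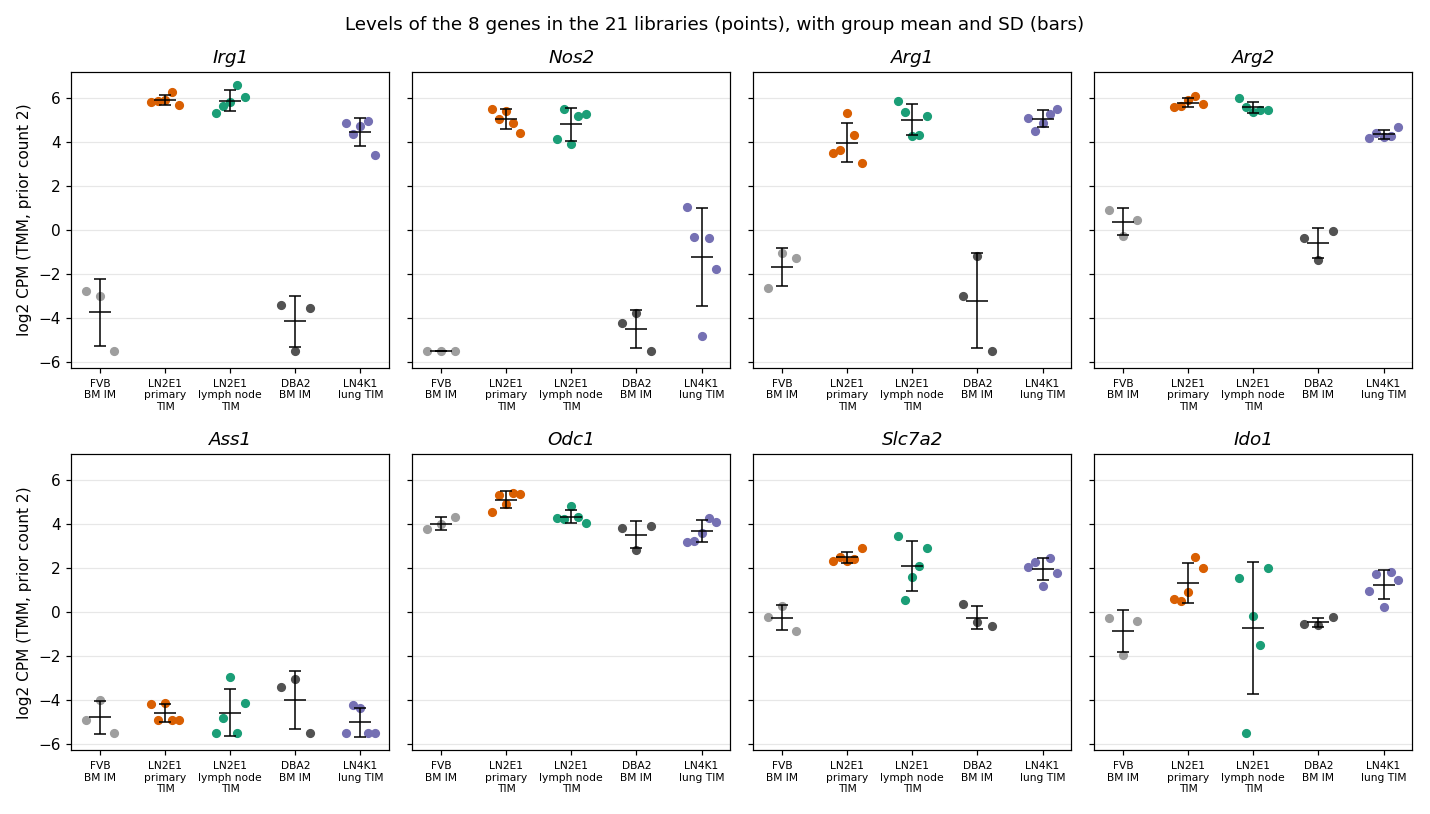
Log2 CPM (vertical axis, prior count 2) of the 8 genes, 1 panel each, in the 21 libraries by group, with points for libraries and bars for the group mean and SD. Irg1 and Arg2 sit higher in all TIM libraries than in all BM IM libraries, Nos2 is high in the LN2E1 groups alone among the 3 TIM groups, and Ass1 stays at the bottom of the scale in every group.

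A gene was called against marrow where edgeR's quasi-likelihood fit gave an adjusted p below 0.0001 and the log2 fold change passed 1 in either direction. Ass1 did not pass the filter on low counts, which left 7 of the 8 genes. In primary tumor TIMs 4 of these 7 were called higher (Irg1, Nos2, Arg2 and Slc7a2), beside 7.72% called higher and 5.18% called lower among 14569 genes. In lymph node TIMs 4 were called higher (Irg1, Nos2, Arg1 and Arg2), beside 4.01% higher and 1.7% lower among 13273 genes. In LN4K1 lung TIMs 2 were called higher (Irg1 and Arg2), beside 1.21% higher and 1.76% lower among 13624 genes. The median log2 fold change of the 7 genes was 5.34 in primary tumors, 5.16 in lymph nodes and 4.69 in LN4K1 lungs, against 0.08, -0.04 and 0.03 over all genes tested. Nothing is read from these counts and medians, since the genes were chosen with these contrasts known.

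**Figure D2:**
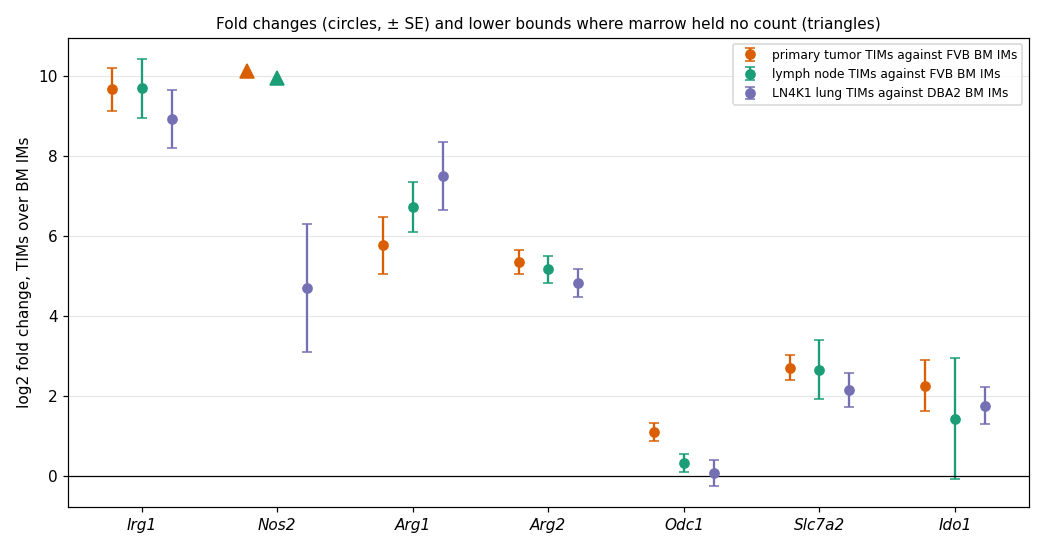
Log2 fold change of the 7 tested members (vertical axis) in the 3 TIM groups over marrow of the same strain, as circles with bars of 1 SE, and as triangles at the lower bound for Nos2 where FVB marrow held no count. Irg1 has values between 8.91 and 9.69 in all 3 groups, while Odc1 lies between 0.07 and 1.08.

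Around itaconate, 25 enzymes and carriers of the citrate cycle and of itaconate breakdown were listed, and all 25 were tested. None rose and 2 fell in primary tumor TIMs and in lymph node TIMs, where the list medians were -0.32 and -0.27, and none was called in LN4K1 lung TIMs, where the median was 0.03. Over all genes 7.72%, 4.01% and 1.21% were called higher in these groups and 5.18%, 1.7% and 1.76% lower. At an unadjusted p under 0.05 in edgeR, 5 were higher and 15 lower in primary tumors, 2 higher and 10 lower in lymph nodes and 1 higher and 1 lower in LN4K1 lungs. DESeq2 called none higher in any of the 3 groups, and 2, 2 and 0 lower. The genes that fell were Idh1, the cytosolic NADP-dependent isocitrate dehydrogenase, and Idh2, its mitochondrial counterpart. Idh1 lay at 567, 589 and 513 CPM in FVB BM IMs and at 184, 154, 214, 210 and 249 CPM in primary tumor TIMs. It lay at 206, 192, 171, 189 and 178 CPM in lymph node TIMs, below every marrow library. In the DBA2 model it was at 476, 454 and 448 CPM in marrow and at 447, 460, 554, 446 and 478 CPM in LN4K1 lung TIMs, which overlapped.

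Idh1 fell by 1.48 on the log2 scale in primary tumor TIMs (SE 0.14, edgeR adjusted p = 1.55e-05) and by 1.57 in lymph node TIMs (SE 0.10, edgeR adjusted p = 2.86e-06), and the LN4K1 value was -0.02 (SE 0.11, edgeR adjusted p = 0.907). Idh2 fell by 1.15 (SE 0.09, edgeR adjusted p = 6.11e-06) and by 1.58 (SE 0.14, edgeR adjusted p = 1.74e-05), with a LN4K1 value of -0.29 (SE 0.10, edgeR adjusted p = 0.0662). Without FVB replicate 1 or 2 the call of Idh1 in primary tumors was lost, with a log2 fold change from -1.56 to -1.39 over all left-out libraries and an adjusted p of at most 0.000155. The call of Idh2 in lymph nodes was lost without FVB replicate 1 or 2 or lymph node replicate 2, 3 or 5, at log2 fold changes from -1.65 to -1.51 and an adjusted p of at most 0.000189.

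The change in primary tumors minus the change in LN4K1 lungs was tested as an interaction, with an adjusted p under 0.05 as the threshold. Of the 25 citrate cycle genes 11 were lower and none higher in this contrast, with a median of -0.40 (3 higher and 14 lower at an unadjusted p under 0.05, and 3 higher and 11 lower by DESeq2), beside 13.2% higher and 13.3% lower among 15182 genes. Idh1 differed by -1.44 (SE 0.18, edgeR adjusted p = 0.000122), Sdhb, an iron-sulfur subunit of succinate dehydrogenase, by -0.90 (SE 0.18, edgeR adjusted p = 0.00235), Idh2 by -0.85 (SE 0.13, edgeR adjusted p = 0.000576) and Mdh1, the cytosolic malate dehydrogenase, by -0.68 (SE 0.18, edgeR adjusted p = 0.0122). All 4 calls were kept with each of 16 libraries left out in turn. The contrast also holds the marrow of the strains, in which 5 of these 25 genes were lower (Idh2, Idh3a, Idh3b, Suclg1 and Sdhd) and 1 higher (Sdhc) in DBA2 than in FVB BM IMs. Over all 12905 genes tested there, 9.57% were lower and 11.5% higher. Idh2 was at -0.33 (SE 0.10, edgeR adjusted p = 0.0456), a call lost without any library but FVB replicate 3 (at most 0.152).

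**Figure D3:**
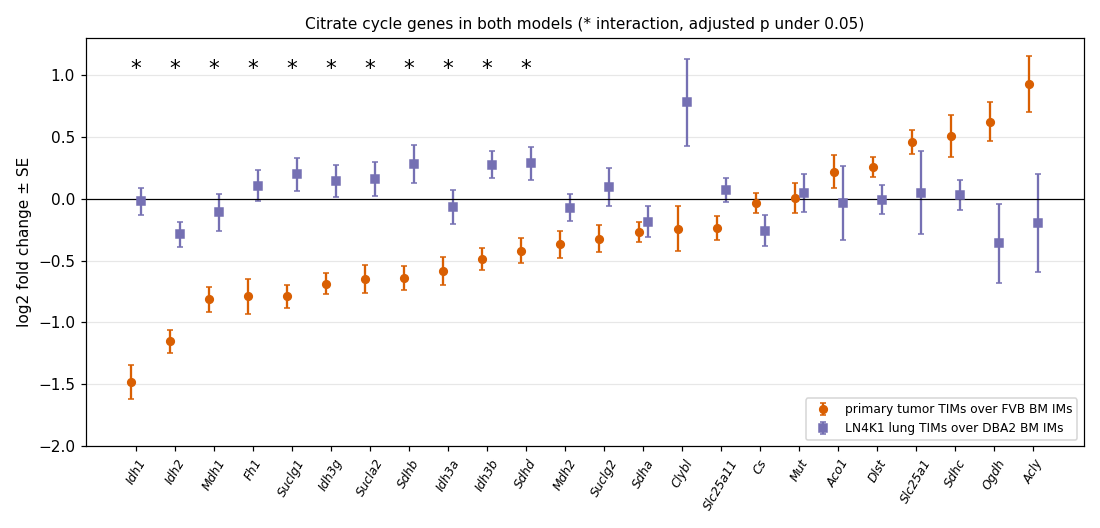
Log2 fold change with bars of 1 SE (vertical axis) of citrate cycle and itaconate genes (horizontal axis, ordered by the primary tumor value) in LN2E1 primary tumor TIMs, circles, and in LN4K1 lung TIMs, squares, over marrow of their own strain. Stars mark the 11 genes called in the interaction, and Idh1 and Idh2 lie lowest in primary tumors, at -1.48 and -1.15.

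Nos2 lies on chr11:78920787-78960254 (GRCm38, plus strand), and its 29 exon blocks cover 4412 bases. It had no count in any of the 3 FVB BM IM libraries and 3, 5 and 0 counts in the 3 DBA2 BM IM libraries. Primary tumor TIMs held 44.7, 32.8, 41.8, 28.8 and 20.7 CPM, and lymph node TIMs 17.2, 45.5, 14.7, 36.5 and 37.9 CPM. In LN4K1 lung TIMs they were 2.02, 0.781, 0.0135, 0.755 and 0.268 CPM, from 174, 74, 1, 73 and 24 counts. The lowest LN2E1 library was therefore above the highest LN4K1 library, and the library with 1 count was replicate 3, one of the libraries that stood apart.

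Against the limit of 3 counts that a count of 0 allows in each FVB library, Nos2 was at least 1108-fold higher in primary tumor TIMs and at least 995-fold higher in lymph node TIMs. In LN4K1 lung TIMs its log2 fold change was 4.69 (SE 1.61), and with each library left out it ran from 3.94 (without LN4K1 replicate 1) to 5.45 (without DBA2 replicate 2), with 5.01 without LN4K1 replicate 3. The mean CPM was 44.0 times that of LN4K1 lung TIMs in primary tumors and 39.6 times in lymph nodes. The change in primary tumors exceeded that in LN4K1 lungs by a fitted log2 value of 9.94 (SE 2.95), which depends on the prior count because FVB marrow was at 0. The summed endothelial markers, mostly Pecam1, were also higher in all LN2E1 than in all LN4K1 libraries. Single endothelial genes went both ways in the same contrast, with 1 of 5 called higher and 1 lower at an adjusted p under 0.05. These were Pecam1 at 3.56 (SE 0.40, edgeR adjusted p = 6.69e-05) and Cldn5 at -7.09 (SE 1.90, edgeR adjusted p = 0.0152). The part of these markers in the Nos2 values was not tested.

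Arg1 lies on chr10:24915221-24927484 (GRCm38, minus strand), with 7 exon blocks over 2228 bases. It was at 0.136, 0.459 and 0.384 CPM in FVB BM IMs and at 0.103, 0.419 and 0 CPM in DBA2 BM IMs. Primary tumor TIMs held 11.3, 12.2, 39.6, 19.9 and 8.14 CPM, lymph node TIMs 58.2, 41.2, 18.9, 19.7 and 36.2 CPM and LN4K1 lung TIMs 34.2, 22.6, 28.7, 38.3 and 45.1 CPM. All TIM libraries lay above all BM IM libraries, and unlike Irg1 and Nos2 the 3 TIM groups overlapped each other. The log2 fold change against marrow was 5.77 (SE 0.72) in primary tumors, 6.72 (SE 0.62) in lymph nodes and 7.50 (SE 0.85) in LN4K1 lungs. The LN4K1 value rests on DBA2 marrow at 10, 42 and 0 counts, and was 9.23 without DBA2 replicate 2 and 6.93 without DBA2 replicate 3. Within primary tumors replicate 3 was the highest, and without it the log2 fold change was 5.26, the lowest over all left-out libraries, and then passed the threshold.

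Arg2 lies on chr12:79130777-79156301 (GRCm38, plus strand), with 8 exon blocks over 1428 bases. It was at 1.86, 0.795 and 1.36 CPM in FVB BM IMs and at 0.76, 0.359 and 0.94 CPM in DBA2 BM IMs. In primary tumor TIMs it was at 48.0, 49.4, 58.8, 66.9 and 51.9 CPM, in lymph node TIMs at 64.0, 47.7, 41.3, 43.3 and 42.9 CPM and in LN4K1 lung TIMs at 17.9, 20.9, 18.7, 19.1 and 25.6 CPM. All LN2E1 libraries lay above all LN4K1 libraries, which in turn lay above all marrow libraries. Against marrow its log2 fold change was 5.34 (SE 0.30) in primary tumors, 5.16 (SE 0.35) in lymph nodes and 4.82 (SE 0.35) in LN4K1 lungs.

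Because reads carried no strand, reads on the exon bases that Arg2 shares with genes on the opposite strand cannot be assigned to one gene. These were 285 bases shared with Vti1b, of the 1428 of Arg2, and 116 bases shared with Gm48780. Vti1b, a vesicle fusion gene, was at 93.7 ± 5.60 CPM (SD, n = 3) in FVB BM IMs, where Arg2 was at 1.34 ± 0.535 CPM. In primary tumor TIMs Vti1b was at 89.9 ± 8.17 CPM (n = 5) and Arg2 at 55.0 ± 7.85 CPM. Slc7a2 shared 635 exon bases, 6.95% of its own, with Gm26584.

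Levels of different genes were compared per kilobase of exon. In primary tumor TIMs the order was Arg2 (38.5 ± 5.50 CPM per kb, SD, n = 5), Irg1 (22.8 ± 3.67), Odc1 (10.4 ± 2.50), Arg1 (8.18 ± 5.69) and Nos2 (7.66 ± 2.21). Neighbours among the last 3 differed by less than their SDs. In lymph node TIMs it was Arg2 (33.5 ± 6.54), Irg1 (23.2 ± 7.99), Arg1 (15.6 ± 7.35), Nos2 (6.88 ± 3.08) and Odc1 (6.0 ± 1.28). In LN4K1 lung TIMs Arg1 (15.2 ± 3.88) and Arg2 (14.3 ± 2.16) were alike within their spread and led Irg1 (8.90 ± 3.09) and Odc1 (3.91 ± 1.34), and Nos2 came near the end at 0.174 ± 0.175 CPM per kb. In BM IMs Odc1 came first, at 4.82 ± 0.959 CPM per kb (n = 3) in FVB and 3.53 ± 1.29 (n = 3) in DBA2 mice.

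Of the summed per kilobase level of Nos2, Arg1 and Arg2, the share of Nos2 was 20.8%, 15.7%, 13.9%, 10.5% and 10.5% in primary tumor TIMs and 5.22%, 16.6%, 8.16%, 17.4% and 15.7% in lymph node TIMs. In LN4K1 lung TIMs it was 1.61%, 0.709%, 0.0118%, 0.557% and 0.159%. Both arginases together thus exceeded Nos2 in every TIM library of all 3 groups. The share of Arg2 in the 2 arginases was 86.9%, 86.3%, 69.9%, 84.0% and 90.9% in primary tumor TIMs, 63.2%, 64.4%, 77.3%, 77.5% and 64.9% in lymph node TIMs and 45.0%, 59.1%, 50.4%, 43.7% and 47.0% in LN4K1 lung TIMs. Every LN2E1 library had a larger share of Arg2 than every LN4K1 library.

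**Figure D4:**
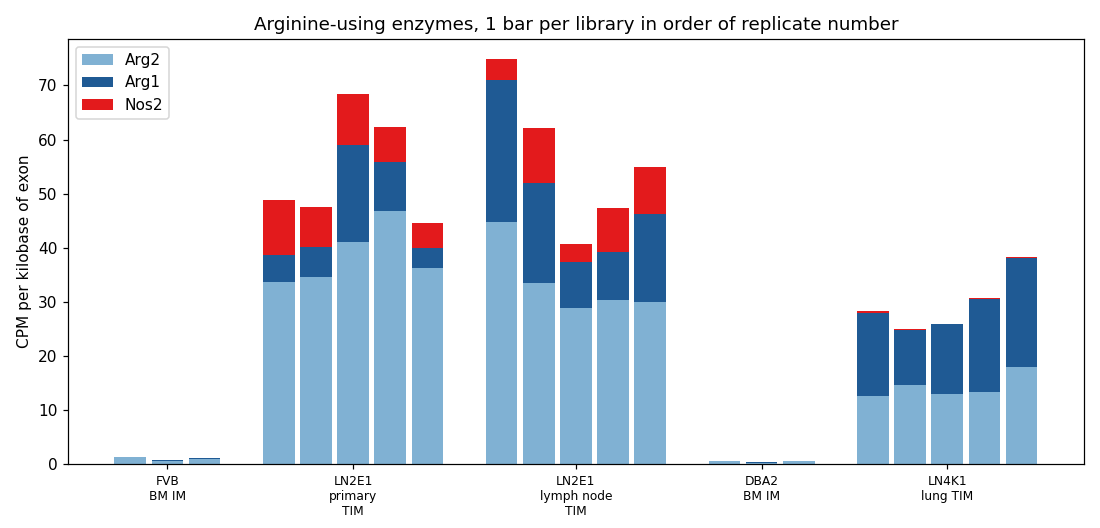
CPM per kilobase of exon (vertical axis) of Arg2, Arg1 and Nos2 stacked in 1 bar per library, by group and in order of replicate number. Marrow bars are near 0, the Nos2 part is visible in all LN2E1 bars and nearly absent from LN4K1 bars, and Arg1 and Arg2 fill the LN4K1 bars about evenly.

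Ass1 (chr2:31470207-31520672, GRCm38, plus strand) was at or near 0 in every library. Its counts were 1, 4 and 0 in FVB BM IMs, 7, 10 and 0 in DBA2 BM IMs, 3, 1, 3, 1 and 1 in primary tumor TIMs, 0, 1, 9, 0 and 3 in lymph node TIMs and 0, 3, 2, 0 and 0 in LN4K1 lung TIMs. It was tested in no comparison, and a difference between groups was not detectable at this depth.

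Slc7a2 (chr8:40862396-40922308, GRCm38, plus strand) encodes a cationic amino acid carrier and was expressed at a low level. It was at 0.841, 1.2 and 0.536 CPM in FVB BM IMs, 1.25, 0.708 and 0.612 CPM in DBA2 BM IMs and 4.97, 5.66, 5.0, 5.22 and 7.42 CPM in primary tumor TIMs. In lymph node TIMs it was at 10.9, 1.42, 3.01, 4.19 and 7.44 CPM and in LN4K1 lung TIMs at 4.12, 4.87, 2.21, 5.4 and 3.39 CPM. All TIM libraries lay above all marrow libraries of either strain, with the widest range in lymph nodes. Its log2 fold change was 2.70 (SE 0.32) in primary tumors, 2.65 (SE 0.74) in lymph nodes and 2.14 (SE 0.42) in LN4K1 lungs. Its call in primary tumors was lost without any 1 of the 8 libraries, at log2 fold changes from 2.46 to 3.04.

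Of 26 other genes of arginine supply and nitric oxide, 22 were tested in primary tumor TIMs and 20 each in lymph node and LN4K1 lung TIMs. In primary tumors 1 rose and 1 fell, with a list median of 0.18. In lymph nodes 1 fell, with a median of -0.35, and in LN4K1 lungs 1 fell, with a median of 0.06. At an unadjusted p under 0.05 in edgeR 10 were higher and 8 lower in primary tumors, 6 and 6 in lymph nodes and 3 and 5 in LN4K1 lungs. DESeq2 called 3, 2 and 1 higher in these groups and 2, 1 and 1 lower. Over all genes 7.72%, 4.01% and 1.21% were called higher in these groups and 5.18%, 1.7% and 1.76% lower. The lymph node call was lost in 7 of 8 fits with a library left out, and the call in LN4K1 lungs was lost without any of the 3 DBA2 libraries or without LN4K1 replicate 2 or 4.

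Ddah1, which breaks down a natural inhibitor of nitric oxide synthases, rose in primary tumor TIMs. It was at 1.68, 4.23, 2.8, 5.85 and 4 CPM in their libraries and at 0 counts in all FVB BM IM and lymph node TIM libraries, so it was at least 122-fold higher than in FVB marrow (edgeR adjusted p = 3.02e-05). The same libraries held the most RNA of fibroblast markers, at 378 to 1134 CPM, and of squamous and lung epithelial markers, at 157 to 742 CPM. Their part in the Ddah1 value was not tested. The call was lost without FVB replicate 1 or 2 or primary tumor replicate 2, 4 or 5, with an adjusted p of at most 0.000164. Of the other nitric oxide synthases, Nos1 was at 0 in most libraries and at most 0.0339 CPM, and Nos3 lay between 0.368 and 2.11 CPM over all libraries.

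Odc1 (chr12:17544794-17551505, GRCm38, plus strand, 7 exon blocks over 3405 bases) encodes the first enzyme of polyamine synthesis. It was at 13.5, 15.9 and 19.9 CPM in FVB BM IMs and at 14.3, 6.94 and 14.8 CPM in DBA2 BM IMs. It was at 23.3, 39.5, 29.6, 42.7 and 41.7 CPM in primary tumor TIMs, at 19.5, 18.5, 27.7, 20.1 and 16.3 CPM in lymph node TIMs and at 9.02, 9.35, 12, 19.1 and 17.1 CPM in LN4K1 lung TIMs. Primary tumor TIMs were above FVB marrow without overlap, while lymph node and LN4K1 lung TIMs overlapped the marrow of their strains. Against marrow its log2 fold change was 1.08 (SE 0.23) in primary tumors, 0.31 (SE 0.24) in lymph nodes and 0.07 (SE 0.33) in LN4K1 lungs, and none was called.

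Lymph node and primary tumor TIMs of the LN2E1 model were compared directly, with an adjusted p under 0.05 as the threshold, in a contrast the choice of genes did not rest on. Of the 7 genes tested 1 was lower, Odc1, and none was higher, in edgeR as in DESeq2 and also at an unadjusted p under 0.05, beside 6.15% higher and 5.55% lower among 13488 genes. Odc1 had a mean of 35.4 ± 8.50 CPM (SD, n = 5) in the primary tumor group and 20.4 ± 4.35 CPM (n = 5) in the lymph node group, a log2 fold change of -0.78 (SE 0.20, edgeR adjusted p = 0.0262). The groups overlapped, because primary tumor replicate 1 at 23.3 CPM lay below lymph node replicate 3 at 27.7 CPM. The call was lost without primary tumor replicate 2, 4 or 5 or lymph node replicate 2 or 5, at log2 fold changes from -0.93 to -0.71 over all left-out libraries and an adjusted p of at most 0.0775.

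The other 6 genes did not pass in this comparison. The log2 fold change of Arg1 in lymph node against primary tumor TIMs was 0.94 (SE 0.45, edgeR adjusted p = 0.211), and without primary tumor replicate 3 it was 1.45 (edgeR adjusted p = 0.039). Those of Irg1 at 0.03 (SE 0.21, edgeR adjusted p = 0.949), Nos2 at -0.14 (SE 0.32, edgeR adjusted p = 0.827) and Slc7a2 at -0.06 (SE 0.46, edgeR adjusted p = 0.953) were smaller than their errors. Arg2 was at -0.19 (SE 0.14, edgeR adjusted p = 0.451) and Ido1 at -0.84 (SE 1.08, edgeR adjusted p = 0.682). The marker sums of fibroblasts and epithelium given for these groups also differed between them, and their part in the Odc1 difference was not tested.

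Of 20 other polyamine genes 17 were tested. Smox, the spermine oxidase that turns spermine back to spermidine, was the 1 that rose in primary tumor TIMs, where the list median was -0.27. Smox and Sat1, the acetyltransferase that starts polyamine export and breakdown, were the 2 that rose in lymph node TIMs, with a list median of -0.01. At an unadjusted p under 0.05 in edgeR 6 were higher and 9 lower in primary tumors and 5 and 5 in lymph nodes. DESeq2 called 2 higher and 1 lower in each of these groups. None was called in LN4K1 lung TIMs by edgeR, with a median of -0.05, where 3 were higher and 3 lower at an unadjusted p under 0.05 and DESeq2 called 1 higher and 1 lower. Over all genes edgeR called 7.72%, 4.01% and 1.21% higher in these groups and 5.18%, 1.7% and 1.76% lower. Smox was at 18.9, 21.8 and 21.6 CPM in FVB BM IMs, at 560, 581, 830, 616 and 521 CPM in the primary tumors and at 677, 539, 346, 624 and 825 CPM in the lymph nodes. In the DBA2 model it was at 25.4, 24.8 and 23.8 CPM in marrow and at 97, 88.3, 51.3, 79.1 and 101 CPM in LN4K1 lung TIMs. The TIM libraries of each model lay above its marrow, and the lowest LN2E1 library was above the highest LN4K1 library. The endothelial marker sum, mostly Pecam1, was also higher in each LN2E1 library than in any LN4K1 library, though single endothelial genes went both ways. Its part in the Smox values was not tested.

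The log2 fold change of Smox was 4.88 (SE 0.20, edgeR adjusted p = 1.59e-07) in primary tumors, 4.86 (SE 0.29, edgeR adjusted p = 1.9e-06) in lymph nodes and 1.68 (SE 0.22, edgeR adjusted p = 0.000475) in LN4K1 lungs. The last was not called, but without LN4K1 replicate 3 it was 1.81 (edgeR adjusted p = 2.03e-06) and passed. The change of Smox in primary tumors exceeded that in LN4K1 lungs by 3.22 (SE 0.28, edgeR adjusted p = 8.8e-06). Sat1 rose by 1.01 in lymph nodes (SE 0.11, edgeR adjusted p = 9.07e-05), a call lost without any 1 of the 8 libraries, at log2 fold changes from 0.94 to 1.08 and an adjusted p of at most 0.00126.

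In lymph node against primary tumor TIMs, 1 of the 17 polyamine genes was higher and 2 were lower, with a list median of -0.13. Over all 13488 genes tested, 6.15% were higher and 5.55% lower. At an unadjusted p under 0.05 in edgeR 4 of the 17 were higher and 3 lower, and DESeq2 called 2 higher and 3 lower. Sat1 was higher, at 1721, 1726, 1715, 1464 and 1669 CPM against 1270, 1193, 1083, 941 and 1163 CPM without overlap (log2 fold change 0.56, SE 0.09, edgeR adjusted p = 0.00337). Srm, the spermidine synthase, was lower, at 14.6, 19.6, 13.1, 18.7 and 13.3 CPM against 22.3, 30, 21.1, 33.2 and 28.6 CPM, also without overlap (log2 fold change -0.76, SE 0.18, edgeR adjusted p = 0.019). Atp13a2, a lysosomal polyamine exporter, was lower by 0.54 on the log2 scale (-0.54, SE 0.13, edgeR adjusted p = 0.0213). Odc1 and Srm, which act in the synthesis of spermidine, were both lower in lymph nodes, while Sat1 was higher. Nothing about the pathway as a whole is read from these few calls, and that of Odc1 was lost in 5 of 10 fits with a library left out. The call of Srm was lost without primary tumor replicate 4 (adjusted p of at most 0.0541) and that of Atp13a2 without primary tumor replicate 1 or 4 (at most 0.0525).

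**Figure D5:**
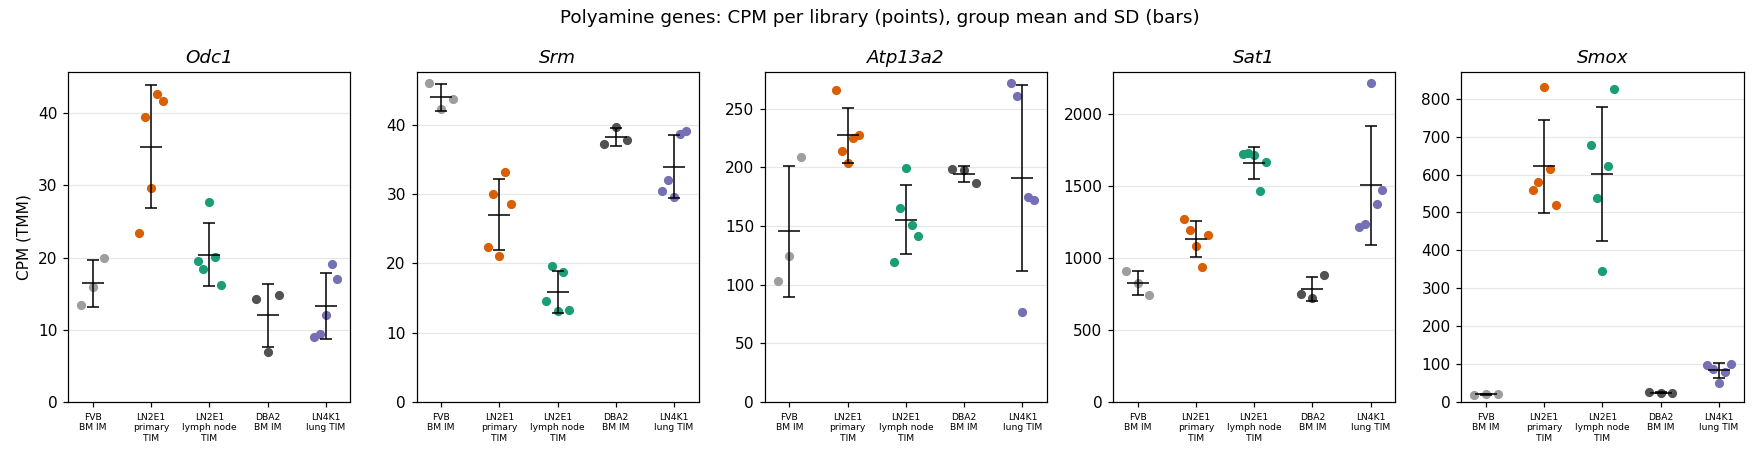
CPM (vertical axes, each from 0) of Odc1, Srm, Atp13a2, Sat1 and Smox in each library by group, with points for libraries and bars for the group mean and SD. Odc1 is highest in primary tumor TIMs at a mean of 35.4 CPM, and Smox has means of 622 and 602 CPM in the LN2E1 groups against 83.3 CPM in LN4K1 lungs.

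Outside polyamines, some genes were called between lymph node and primary tumor TIMs. They were 4 of 25 citrate cycle genes (2 higher, 2 lower), 3 of 21 of arginine supply and nitric oxide (1 higher, 2 lower) and 1 of 15 of tryptophan use (higher). This stands beside 6.15% higher and 5.55% lower among 13488 genes, and nothing is read from the counts. In lymph nodes Mdh1 was higher by 0.39 (SE 0.09, edgeR adjusted p = 0.0145) and Idh2 was at -0.44 (SE 0.10, edgeR adjusted p = 0.0199). Ddah1 was at least 101-fold higher in primary tumors than in lymph nodes (edgeR adjusted p = 0.000751). Sdhb at 0.34 (SE 0.10, edgeR adjusted p = 0.0486) and Gch1, the first enzyme of tetrahydrobiopterin synthesis, at 0.49 (SE 0.14, edgeR adjusted p = 0.0494) lay just inside the threshold. The call of Sdhb was kept only without lymph node replicate 3 or 4, that of Gch1 only without replicate 3 of either group, and adjusted p otherwise reached 0.149 and 0.130. Idh2 lost its call without primary tumor replicate 2, 4 or 5 (at most 0.0578).

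Ido1 (chr8:24584136-24597009, GRCm38, minus strand, 11 exon blocks over 1825 bases) was low in all groups. It was at 0.818, 0.234 and 0.733 CPM in FVB BM IMs and at 0.657, 0.639 and 0.834 CPM in DBA2 BM IMs. Primary tumor TIMs held 1.51, 1.39, 1.84, 5.72 and 3.96 CPM, lymph node TIMs 2.88, 0, 0.855, 0.333 and 3.96 CPM and LN4K1 lung TIMs 1.89, 3.29, 1.15, 3.52 and 2.76 CPM. Primary tumor and LN4K1 lung TIMs lay above their marrow, and lymph node TIMs ranged from 0 to 3.96 CPM around it. Its log2 fold change was 2.25 (SE 0.64) in primary tumors, 1.43 (SE 1.51) in lymph nodes and 1.75 (SE 0.47) in LN4K1 lungs. The lymph node value was 0.78 without lymph node replicate 5. The sum of 9 dendritic cell markers lay from 78.6 to 109 CPM in BM IMs, from 170 to 339 CPM in primary tumors, from 88.5 to 616 CPM in lymph nodes and from 130 to 353 CPM in LN4K1 lungs. Its part in the Ido1 values was not tested.

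Of 23 other genes of tryptophan use, 15 were tested in each LN2E1 comparison and 16 in LN4K1 lungs. Over all genes edgeR called 7.72% higher and 5.18% lower in primary tumors, 4.01% and 1.7% in lymph nodes and 1.21% and 1.76% in LN4K1 lungs. In primary tumor TIMs 3 of the listed genes rose and 1 fell, with a list median of 0.43. At an unadjusted p under 0.05 in edgeR 8 were higher and 2 lower in primary tumors and 7 and 1 in lymph nodes. DESeq2 called 5 higher and 1 lower in each of these groups. Lymph node TIMs had 2 that rose (Tiparp and the carrier gene Slc7a8, the latter named for this count after its values were seen) and 1 that fell (Haao), with a median of 0.70, and LN4K1 lung TIMs had none by edgeR, with a median of 0.16, where 5 were higher and 2 lower at an unadjusted p under 0.05 and DESeq2 called 1 higher. Kmo and Haao encode steps of the kynurenine route, kynurenine 3-monooxygenase and the dioxygenase that yields the precursor of quinolinic acid. Kmo was at 9.22, 11.3 and 6.4 CPM in FVB BM IMs and at 38.4, 45.7, 30.4, 53.4 and 40.1 CPM in primary tumor TIMs, and rose by 2.20 (SE 0.23, edgeR adjusted p = 3.21e-05). Its value was 2.80 in lymph nodes (SE 0.44, edgeR adjusted p = 0.000761) and 0.57 in LN4K1 lungs (SE 0.16, edgeR adjusted p = 0.0248), neither called. Haao moved the other way in primary tumor TIMs, from 119, 133 and 98.3 CPM to 38.5, 35.9, 23.5, 26.3 and 32.1 CPM, and fell by 1.92 on the log2 scale (SE 0.16, edgeR adjusted p = 9.41e-06). In lymph nodes Haao fell by 1.46 (SE 0.16, edgeR adjusted p = 8.18e-05), a call lost in 7 of 8 fits with a library left out (adjusted p of at most 0.000821).

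Slc7a5, a carrier of tryptophan and other large neutral amino acids, rose by 2.72 in primary tumors (SE 0.32, edgeR adjusted p = 7.59e-05), from 1.85, 2.88 and 4.85 CPM to 20.1, 17.1, 23.3, 27.4 and 20.1 CPM. Its value was 2.32 in lymph nodes (SE 0.53, edgeR adjusted p = 0.0071) and 0.31 in LN4K1 lungs (SE 0.34, edgeR adjusted p = 0.567), neither called. Tiparp, a target of the aryl hydrocarbon receptor, which kynurenine can bind, rose by 1.57 in primary tumors (SE 0.11, edgeR adjusted p = 2.22e-06) and by 2.06 in lymph nodes (SE 0.15, edgeR adjusted p = 6.02e-06). It was also higher in lymph node than in primary tumor TIMs (0.49, SE 0.12, edgeR adjusted p = 0.0218). Its LN4K1 value was 0.52 (SE 0.20, edgeR adjusted p = 0.0942). The primary tumor call of Slc7a5 was lost without any library but FVB replicate 3 (adjusted p of at most 0.000557) and that of Kmo without FVB replicate 1 or 2 or primary tumor replicate 1, 2 or 5 (at most 0.000301). For Tiparp the lymph node call was lost without FVB replicate 2 (0.000105), and the call against primary tumors without primary tumor replicate 1, 2, 4 or 5 (at most 0.0658).

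The same 4 genes were called in the interaction, and all 4 calls were kept with each of 16 libraries left out in turn. The change in primary tumors exceeded that in LN4K1 lungs by 2.43 for Slc7a5 (SE 0.48, edgeR adjusted p = 0.00243), by 1.64 for Kmo (SE 0.27, edgeR adjusted p = 0.000857) and by 1.06 for Tiparp (SE 0.23, edgeR adjusted p = 0.00412), and differed by -1.09 for Haao (SE 0.22, edgeR adjusted p = 0.00266). Each of the 4 also differed between the marrows of healthy mice. In DBA2 against FVB BM IMs Kmo was at 1.03 (SE 0.22, edgeR adjusted p = 0.0148), Slc7a5 at 1.35 (SE 0.38, edgeR adjusted p = 0.0379), Tiparp at 0.47 (SE 0.12, edgeR adjusted p = 0.0298) and Haao at -0.72 (SE 0.12, edgeR adjusted p = 0.00554). The marrow call was lost without DBA2 replicate 2 or 3 for Kmo (adjusted p of at most 0.0591), without either of these or FVB replicate 1 or 2 for Slc7a5 (at most 0.128) and without DBA2 replicate 1 or 3 or FVB replicate 1 or 2 for Tiparp (at most 0.120). Ido2 and Il4i1, other enzymes that consume tryptophan, were at most 0.445 and 0.133 CPM.

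The marrows of the strains were compared at the same threshold. Irg1, Nos2 and Ass1 did not pass the filter on low counts there, and of the other 5 genes none was called by edgeR or by DESeq2 and none had an unadjusted p under 0.05, beside 11.5% higher and 9.57% lower in DBA2 among 12905 genes. The log2 fold change in DBA2 against FVB BM IMs was -0.94 for Arg2 (SE 0.58, edgeR adjusted p = 0.279), -0.89 for Arg1 (SE 1.31, edgeR adjusted p = 0.664) and -0.43 for Odc1 (SE 0.30, edgeR adjusted p = 0.335). It was 0.03 for Slc7a2 (SE 0.57, edgeR adjusted p = 0.976) and 0.27 for Ido1 (SE 0.66, edgeR adjusted p = 0.799). With 3 libraries a side and these errors, differences of the size of the SEs were not detectable.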

How the data were processed

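RNA-seq of 21 sorted IM libraries was analysed. The authors trimmed reads with BBDuk, aligned them to mm10 with BBMap and deposited raw read counts per gene symbol, made with featureCounts 1.5.2 (the submitters' processing notes also list SAMtools 1.8). Counting settings were not given in the sources used here. Libraries were unstranded, from little RNA amplified by SMARTer and Nextera XT. The study's methods call replicates technical, so p-values measure only the spread between these samples.

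Groups came from the sample labels. Only the libraries of a comparison entered its fit, over all genes, with edgeR 4.0.16 (R 4.3.3, limma 3.58.1) using TMM, a minimum count of 10, a minimum total of 15, the robust quasi-likelihood test and Benjamini-Hochberg adjustment. Calls against marrow needed an adjusted p below 0.0001 and a log2 fold change past 1 in either direction, thresholds taken from the study's methods. The SE was the absolute log2 fold change over the square root of F, which is approximate. CPM were TMM-scaled over 21 libraries, log2 CPM used a prior count of 2, and 3 counts was the limit that a count of 0 allows, for counting error only. Positions came from the GRCm38 annotation. Python 3.11.15, numpy 2.4.6, pandas 2.3.3 and matplotlib 3.10.9 made tables and figures.

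The members, lists and rules were chosen with earlier results of these data known. All 8 members were named. From each pathway list the text names up to 3 genes a direction with the largest called change in primary tumor TIMs, and up to 2 a direction called between lymph node and primary tumor TIMs. Fits were tested on simulated data. The alternatives were DESeq2 size factors, a filter of 1 count in total, all 5 groups in one fit, the replicate number as a block, DESeq2 1.42.0 with and without shrinkage, and leaving out each library. No row of the table carried the symbol Azin2. Adc, an older symbol of the same gene, was in the table and was tested with the polyamine genes. The symbols Chil3 and Chil4 of the IL-4 response list and Adgre1 of the mature macrophage list were also absent. They are not part of the values of these lists. Some genes of the lists are counted in the list values but are not reported by name here.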

Additional observations from a re-analysis of the deposited data

Results flagged for a closer look

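In the 22 tests of the members' groups of 5 for a lone library, 2 libraries stood apart, and chance flags about 1 in 20 groups. Arg2 was highest in lymph node TIM replicate 1, at 64.0 CPM against 41.3 to 47.7 CPM in the other libraries, a gap of 0.718 of the group's range. Slc7a2 was highest in primary tumor TIM replicate 5, at 7.42 CPM against 4.97 to 5.66 CPM, a gap of 0.716 of the range.

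The change in primary tumors differed from the change in LN4K1 lungs for 9 higher and 14 lower of 80 other pathway genes tested. This stands beside 13.2% higher and 13.3% lower among 15182 genes, and nothing is read from the count. Of the called pathway genes 9 were named by the rule. For Nos2 the difference on the log2 scale was 9.94, from 9.18 to 10.69 with a library left out, a description that rests on FVB marrow at 0. It was 3.22 for Smox, 2.43 for Slc7a5, 1.64 for Kmo and 1.06 for Tiparp. It was -1.44 for Idh1, -1.09 for Haao, -0.90 for Sdhb, -0.85 for Idh2 and -0.68 for Mdh1. These 9 kept their call with each of 16 libraries left out in turn.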

How the results depend on the processing

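Over 2281 pairs of a value and an alternative, 1953 kept the direction and the side of the threshold, and no called value took the opposite sign under any alternative run. DESeq2 size factors in edgeR changed no count of calls by more than 1.5 times. DESeq2, shrunken or not, called more genes: 16 other pathway genes in primary tumors (9 in edgeR), 14 in lymph nodes (8), 5 in LN4K1 lungs (1) and 18 between lymph node and primary tumor TIMs (11), and 4 members in LN4K1 lungs (2). With all 5 groups in one fit, 2 other pathway genes were called in LN4K1 lungs, and 1 member (Arg2) and 7 other pathway genes in DBA2 against FVB BM IMs (0 and 17). The filter of 1 count called 2 other pathway genes in LN4K1 lungs. Why the counts differed was not tested. DESeq2's shrunken values were not run for the interaction.

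With the replicate block, members called numbered 0 in primary tumors, lymph nodes, LN4K1 lungs and lymph node against primary tumor TIMs, and other pathway genes called numbered 0, 0, 0 and 2. The labels do not say whether equal numbers mark paired samples, and the main fits treated the samples as unpaired. The correlations of same-numbered samples lay between -0.12 and 0.07. Healthy marrow and tumor samples came from different mice, as did samples of different strains. Of the groups compared, only lymph node and primary tumor samples could therefore share mice. In that comparison no library correlated best with its own number, which cannot decide whether mice were shared. Every FVB library correlated best with its own number in the comparison of lymph node TIMs with marrow, where samples cannot share mice, and nothing is read from it.

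With each library left out in turn, members called numbered 3 to 4 in primary tumors, 2 to 4 in lymph nodes, 0 to 3 in LN4K1 lungs, 0 to 2 between lymph node and primary tumor TIMs and 0 to 0 between marrows. Other pathway genes called numbered 5 to 13, 2 to 7, 0 to 3, 5 to 17 and 2 to 34, and 20 to 30 in the interaction. The 34 came without FVB replicate 3. In LN4K1 lungs Irg1 lost its call without DBA2 replicate 1 or 3 or LN4K1 replicate 1, 2 or 4, Arg2 without DBA2 replicate 1, and Arg1 gained one without LN4K1 replicate 3. In lymph nodes Nos2 lost it without lymph node replicate 4 or 5 and Arg1 without any FVB library or lymph node replicate 2 or 5. These calls describe the members only. Low counts limited Ass1 throughout, Irg1, Nos2 and Arg1 in marrow (at most 11, 5 and 45 counts), Nos2 in LN4K1 lungs (1 to 174 counts) and Ido1 in lymph nodes (0 to 333 counts).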

Other observations

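Genes of the response to interferon and LPS were higher in most TIMs. Of the 16 listed, 13 were called higher in primary tumor TIMs (list median 4.86), 12 in lymph node TIMs (4.82) and 6 of 15 tested in LN4K1 lung TIMs (3.20), beside 7.72%, 4.01% and 1.21% of all genes and medians of 0.08, -0.04 and 0.03 over them. DESeq2 called 16, 15 and 13 higher, and at an unadjusted p under 0.05 in edgeR 16, 16 and 15 were higher. Of the genes of the response to IL-4, edgeR called 3 of 14 tested higher in primary tumor TIMs (Pdcd1lg2, Il4ra and Egr2, list median 2.53). It called 2 of 13 higher in lymph node TIMs (Il4ra and Pparg, 0.57) and 0 of 14 in LN4K1 lung TIMs (1.26). DESeq2 called 9, 4 and 6 of them higher and 0, 0 and 1 lower. At an unadjusted p under 0.05 in edgeR 9, 5 and 7 were higher and 1 was lower in each group. Both lists were written with earlier results known.

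Within the 15 TIM libraries, after the mean of each group was subtracted, the genes most like each member among 7999 expressed genes were given by Pearson's r of log2 CPM, as a description. They were Gm12250 (r = 0.91), Skil (0.88) and Prkx (0.87) for Irg1, and Saa3 (0.88), Cxcl2 (0.85) and Glrx (0.85) for Arg1. For Arg2 they were S100a8 (0.85), a neutrophil marker of the lists used here, Yif1a (0.85) and Galnt2 (0.81), and for Odc1 Cct3 (0.93), Cdan1 (0.81) and Gsk3a (0.76). Among the members themselves Slc7a2 and Ido1 were most alike (0.86), then Arg1 and Arg2 (0.63), and Irg1 and Arg2 ran opposite (-0.56). Slc7a2 and Ido1 lay below the mean log2 CPM of 3 that the 7999 genes had to pass. In lymph node TIM replicate 2 Ido1 had 0 counts and Slc7a2 was the lowest of its group, at 1.42 CPM. How far their r rests on this library was not tested. The libraries share depth and composition within groups.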
